A study of Homo sapiens with 13 samples.

Results

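The genes described here encode the replication-dependent core histones H2A, H2B, H3 and H4. They were taken as every transcript cluster of the array that is named by 1 gene symbol of the form H2AC, H2BC, H3C or H4C followed by a number, with the highest-mean row kept per gene. This gave 50 genes of 18404 measured: 14 H2A, 16 H2B, 8 H3 and 12 H4 genes, of which 43 lie in the HIST1 cluster on chromosome 6, 4 in HIST2 and 2 in HIST3 on chromosome 1, and 1 in HIST4 on chromosome 12. No member had more than 1 such row, so no choice between rows was needed. Another 13 coding genes of the same form share their rows with further genes and are described in the closing section.

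SW480 is an established human colon cancer cell line. Cells had been kept for 6 h in DFO (deferoxamine, 100 mM, n = 4 arrays), in Deferasirox (50 mM, n = 3) or in OICR623 (10 mM, n = 2), and in the solvent DMSO (0.1%, n = 4). The doses are given in the labels' unit, which is high for cells in culture, and they differ between compounds, so the compounds are set side by side and not at a matched dose. Deferasirox and DFO are both used clinically to bind excess iron, while for OICR623 the labels give a code name only. The replicates come from independent experiments, per the series' design text. RNA was labelled for whole-transcript arrays, a method that primes along the transcript and not at a poly(A) tail.

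Replication-dependent histone genes are transcribed mainly in S phase, when newly copied DNA is packed into nucleosomes. Their mRNAs end in a stem-loop, bound by the protein SLBP, in place of a poly(A) tail, and they are degraded quickly when DNA synthesis stops. Each core histone is encoded by many near-identical genes, so probes for one gene can also bind the RNA of its copies, and the value of any single member is uncertain to that extent. In RNA from whole cultures, fewer cells expressing a gene and less of its RNA per cell cannot be told apart.

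The arrays differed in more than treatment. Their medians fell into a high level (DFO 1 and DMSO 1, 7.17 to 7.19 log2), a middle level (8 arrays, 6.64 to 6.69) and a low level (DFO 4, Deferasirox 3 and DMSO 4, 6.52 to 6.55). Each change below is therefore the estimate of a linear model with a mean per group and the level as a block. Both OICR623 arrays lay in the middle level. In DFO 1 and DMSO 1, 30.1% of the 18404 genes held equal values (log2 signals within 1e-06 of each other), 2 of the members (H2AC1 and H4C7) among them, whereas the other 77 pairs of arrays shared at most 0.201% of their values. Among the markers of other cells, 0 of 7 fibroblast, 0 of 5 endothelial and 0 of 6 leukocyte genes were called under any compound. Of 11 colon epithelial markers, 2 were called under DFO, 2 under Deferasirox and 0 under OICR623. Their means ran from 4.92 log2 (CEACAM5) to 13.02 (KRT18), and 5 of the 11 lay above the median gene (7.46). Of the other lists, 1 of 7 fibroblast (COL1A1, 7.77), 0 of 5 endothelial and 1 of 6 leukocyte genes (CD68, 9.18) lay above it. The files hold no detection calls, so absence of a marker could not be measured.

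Core histone RNA was lower under all 3 compounds. Under DFO, 45 of the 50 genes fell and 0 rose (limma, p under 0.05 after Benjamini-Hochberg adjustment across the whole table), against 2.72% of all genes called lower and 1.89% called higher. Under Deferasirox, 44 fell and 0 rose, where 3.0% of all genes were called lower and 2.83% higher. Under OICR623, 25 fell and 0 rose, where 0.397% of all genes were called lower and 0.337% higher. The median change of the 50 genes was -1.42 log2 under DFO, -1.25 under Deferasirox and -0.65 under OICR623, and that of all genes lay within 0.01 of 0 in each comparison. The medians correspond to 2.67-fold, 2.38-fold and 1.57-fold lower signals.

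The members took many of the places at the bottom of the whole table. Of the 50 genes with the most negative change, 39 were members under DFO, 36 under Deferasirox and 32 under OICR623. H3C12, an H3 gene of the HIST1 cluster, had the lowest change of all 18404 genes under OICR623 and the next to lowest under the other compounds. A linker histone gene, H1-5, was lowest there.

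**Figure D1:**
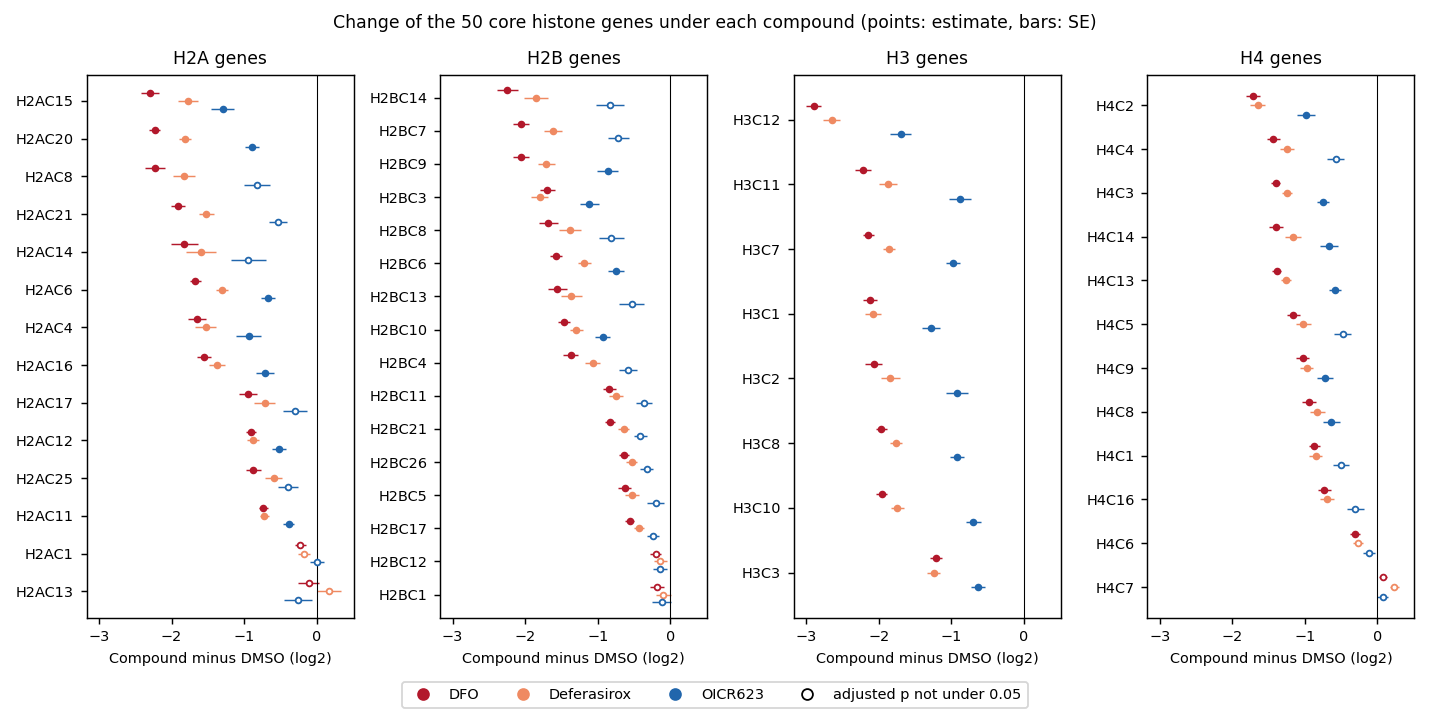
Change of each core histone gene in log2 (compound minus DMSO, x axis) by family, with DFO, Deferasirox and OICR623 as separate points and the SE as bars; open points did not reach an adjusted p under 0.05. Nearly all points lie left of 0, the H3 genes farthest, with a median of -2.10 under DFO, and H2AC1, H2AC13, H2BC1, H2BC12 and H4C7 lie near 0.

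The fall was seen in each array. Set against the DMSO array or arrays of its own level, the median difference of the 50 genes was -1.36, -1.48, -1.50 and -1.39 log2 in DFO 1 to 4. It was -1.26, -1.08 and -1.42 in Deferasirox 1 to 3 and -0.67 and -0.60 in OICR623 1 and 2. The 2 DMSO arrays of the middle level differed from their own mean by -0.02 and 0.02, values of equal size by construction. Single members differed more between them, such as H2BC3 with 7.72 and 7.15. The treated arrays of the middle level lay far from both in this median. DFO 1, DFO 4 and Deferasirox 3 lie in levels with 1 DMSO array, which gives no DMSO spread there. Both OICR623 arrays lay above all 7 arrays of the other compounds.

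Within levels, 47 of the 50 genes were lower under DFO in all 3 levels, against 17.7% of all genes. The 30.1% of genes with equal values in DFO 1 and DMSO 1 could not count as lower, which can reduce that share. The exceptions were H2AC1, H2AC13 and H4C7. H2AC1 was tied in the high level, with -0.27 in the middle and -0.37 in the low level. Under Deferasirox, 48 genes were lower in both levels that hold its arrays, where 30.4% of all genes were; H2AC13 and H4C7 were not. Under OICR623, 45 genes had both arrays below both DMSO arrays of the middle level, against 17.5% of all genes.

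**Figure D2:**
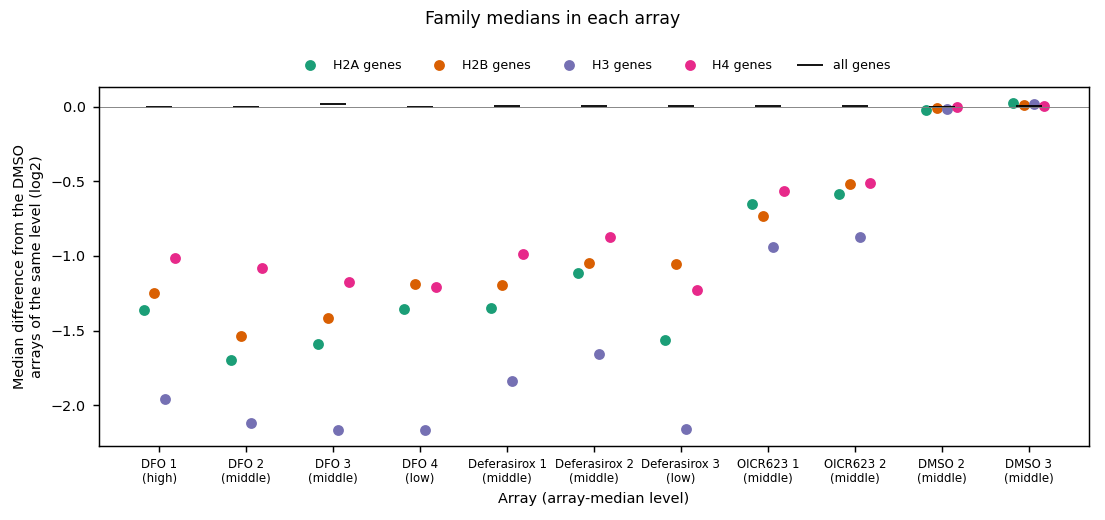
Median difference of each array from the DMSO arrays of its own level (log2, y axis), by histone family and for all genes (black dash), with arrays ordered by group on the x axis. Family medians run from -0.87 to -2.16 in the DFO and Deferasirox arrays and from -0.51 to -0.94 in the OICR623 arrays, while all genes and the 2 DMSO arrays stay near 0; DMSO 1 and DMSO 4 are the only DMSO arrays of their level and are not drawn.

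The level as a block bears on these counts. Without it, the counts of genes called lower were 22 under DFO, 22 under Deferasirox and 0 under OICR623, with medians of -1.42, -1.43 and -0.67. The OICR623 count also depended on single arrays. It was 7 without OICR623 replicate 1 and 12 without replicate 2, and 16 without DMSO replicate 2 and 15 without DMSO replicate 3. With 1 OICR623 array left, the other groups supply all of the spread and the lone array is assumed to vary like them, so fewer calls also follow from the smaller group.

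The DNA before these genes shows what the families share. A window from 250 bases before to 50 bases after the start was found for 45 members in the RefSeq promoter table (GRCh38.p14), and 2 of these had a further window, which was not used. CCAAT, the letters that the factor NF-Y binds, was present on either strand in 84.4% of the members' windows and in 34.6% of all 35116 windows of that table. TATAAA, a form of the TATA box, was present in 68.9% of the members' windows and in 11.5% of all. The octamer ATTTGCAT, which the factor POU2F1 binds, was present in 51.1% of the members' windows and in 1.77% of all. CCAAT stood in all 13 H2A, 16 H2B and 6 H3 windows and in 3 of 10 H4 windows. The octamer stood in 10 of 13 H2A and 13 of 16 H2B windows, and in 0 of 6 H3 and 0 of 10 H4 windows. A match describes the letters only. In 9 head-to-head pairs of an H2A and an H2B gene the starts lie 212 to 245 bases apart, so their windows overlap. With both strands read, a match there can count for both genes. The members' shares, and the splits below, are therefore not counts of independent windows.

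In all, 6 windows are printed to set genes that fell far beside genes that did not, within a family. Under DFO and Deferasirox, H2BC14 had the largest fall of the H2B genes and H2BC12 was not called, while under OICR623 neither was called. Under DFO and Deferasirox, H4C2 and H4C7 stand in the same relation among the H4 genes, and H2AC20 and H3C7 stand for the other families. Capitals mark the 3 motifs on either strand, so some are the reverse complements of these letters, and matches that overlap run together.
H2AC20, chr1:149886668-149886967, plus strand: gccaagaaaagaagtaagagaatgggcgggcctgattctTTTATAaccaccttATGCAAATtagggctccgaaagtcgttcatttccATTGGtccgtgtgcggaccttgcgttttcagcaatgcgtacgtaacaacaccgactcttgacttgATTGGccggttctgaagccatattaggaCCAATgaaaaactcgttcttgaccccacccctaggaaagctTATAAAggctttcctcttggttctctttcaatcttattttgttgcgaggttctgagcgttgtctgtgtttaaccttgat
H2BC14, chr6:27814772-27815071, plus strand: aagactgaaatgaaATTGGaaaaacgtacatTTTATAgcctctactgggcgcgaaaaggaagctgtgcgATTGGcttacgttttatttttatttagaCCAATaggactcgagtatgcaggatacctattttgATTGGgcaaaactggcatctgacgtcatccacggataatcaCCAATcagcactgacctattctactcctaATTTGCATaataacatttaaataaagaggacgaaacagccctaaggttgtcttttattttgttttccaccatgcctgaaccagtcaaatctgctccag
H2BC12, chr6:27146809-27147108, minus strand: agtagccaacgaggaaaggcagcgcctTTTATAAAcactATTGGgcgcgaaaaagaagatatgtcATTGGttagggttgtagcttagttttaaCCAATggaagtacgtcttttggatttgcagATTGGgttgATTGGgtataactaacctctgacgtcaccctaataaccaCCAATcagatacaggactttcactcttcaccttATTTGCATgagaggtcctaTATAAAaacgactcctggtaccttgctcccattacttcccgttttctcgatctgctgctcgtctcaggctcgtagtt
H3C7, chr6:26250586-26250885, minus strand: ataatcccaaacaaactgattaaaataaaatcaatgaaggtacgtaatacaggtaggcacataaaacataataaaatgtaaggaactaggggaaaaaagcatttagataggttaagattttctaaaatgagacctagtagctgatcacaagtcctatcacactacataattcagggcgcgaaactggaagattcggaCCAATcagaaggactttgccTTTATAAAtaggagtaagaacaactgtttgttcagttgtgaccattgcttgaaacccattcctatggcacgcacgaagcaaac
H4C2, chr6:26027234-26027533, minus strand: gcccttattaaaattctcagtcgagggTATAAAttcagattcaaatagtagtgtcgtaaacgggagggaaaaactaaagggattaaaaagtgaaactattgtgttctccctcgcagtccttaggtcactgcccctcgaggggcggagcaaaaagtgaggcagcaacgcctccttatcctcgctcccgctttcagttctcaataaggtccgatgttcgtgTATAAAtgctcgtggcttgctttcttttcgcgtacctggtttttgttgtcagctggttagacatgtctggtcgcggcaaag
H4C7, chr6:26246947-26247246, minus strand: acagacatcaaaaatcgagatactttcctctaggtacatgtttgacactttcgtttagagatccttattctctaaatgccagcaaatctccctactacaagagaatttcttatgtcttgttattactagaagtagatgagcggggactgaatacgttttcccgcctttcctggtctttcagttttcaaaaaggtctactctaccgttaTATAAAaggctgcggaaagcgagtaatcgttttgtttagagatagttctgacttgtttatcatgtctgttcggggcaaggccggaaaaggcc
Read on both strands, the windows of H2BC14 and H2BC12 both held all 3 motifs. In H2BC14 the only TATAAA match was its reverse complement, at the far end of the window from the start, whereas H2BC12 also held TATAAA near its start. The windows of H4C2 and H4C7 both held TATAAA and neither of the others. Presence on either strand, wherever in the window, was thus the same for both genes of each of these pairs, which were chosen by their changes. H4C7 is dim (mean 5.38 log2, against a 25th percentile of 5.85 over all genes). A row that H2BC12 shares with other genes changed by -1.01 under DFO. The part of the motifs in the falls was not tested. Within families, 7 splits by a motif had genes on both sides, and under DFO the median change was lower with the motif in 5 and higher in 2. With and without the octamer it was -1.66 (10 genes, from -2.23 to -0.22) and -0.87 (3, from -2.29 to -0.11) in H2A. The 3 without it were H2AC15, with the largest fall of the H2A genes, H2AC25 and the dim H2AC13. In H2B it was -1.47 (13, from -2.25 to -0.19) and -0.64 (3, from -1.56 to -0.63). With and without TATAAA it was -1.66 (10) and -1.55 (3) in H2A, -1.11 (12) and -1.76 (4) in H2B, -2.10 (4) and -1.59 (2) in H3 and -1.39 (5) and -1.03 (5) in H4. With and without CCAAT it was -1.03 (3) and -1.16 (7) in H4. None of these differences was tested.

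H3 genes, which encode the canonical H3 proteins, showed the largest falls as a family. All 8 were called lower under each of the 3 compounds. Under OICR623 these calls were less secure: of 27 alternatives, H3C3 and H3C11 each lost the call in 10 and H3C12 in 2. Among single arrays, H3C3 lost it without either OICR623 array (adjusted p 0.17 and 0.088 by limma) or without DMSO replicate 2 (0.063). H3C11 lost it without either OICR623 array (0.2 and 0.063), without Deferasirox replicate 1 (0.056) or without DMSO replicate 3 (0.08). Their median change was -2.10 under DFO, -1.85 under Deferasirox and -0.92 under OICR623. H3C12 had log2 signals of 6.47, 6.00, 5.90 and 5.20 in DFO, 6.09, 6.36 and 5.26 in Deferasirox and 7.15 and 7.03 in OICR623, against 9.61, 8.77, 8.54 and 8.24 in DMSO. All treated arrays lay below all DMSO arrays, and the OICR623 arrays were the highest of the treated ones. The change of H3C12 was -2.90 ± 0.11 (SE, limma) under DFO, -2.65 ± 0.12 under Deferasirox and -1.70 ± 0.14 under OICR623, with adjusted p of 9.1e-08, 1e-06 and 0.00018. The first of these is a 7.46-fold lower signal.

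H3C11 had the next largest fall under DFO and the highest mean signal of its family. It had log2 signals of 10.84, 10.77, 10.79 and 9.99 in DFO, 11.15, 11.42 and 10.02 in Deferasirox and 11.998 and 12.30 in OICR623, against 13.04, 12.86, 13.003 and 12.36 in DMSO. Its groups did not overlap with DMSO, and the low-level arrays were the lowest of each group that holds one. It changed by -2.22 ± 0.12 under DFO, by -1.87 ± 0.13 under Deferasirox and by -0.88 ± 0.15 under OICR623 (limma adjusted p 1.1e-06, 1.3e-05 and 0.027). H3C3 changed least of the family under DFO. Its signals were 6.98, 6.69, 6.98 and 6.48 in DFO, 6.80, 6.80 and 6.49 in Deferasirox and 7.32 and 7.44 in OICR623, against 8.14, 7.99, 7.89 and 7.96 in DMSO. Here too every treated array lay below every DMSO array. The changes of H3C3 were -1.21 ± 0.08, -1.24 ± 0.09 and -0.63 ± 0.10 under DFO, Deferasirox and OICR623. The other 5 H3 genes lay between these extremes, from -2.15 (H3C7) to -1.96 (H3C10) under DFO.

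H2A genes split into a large group that fell and 2 genes that were not called. Under DFO 12 of 14 fell, under Deferasirox 12 and under OICR623 7, with medians of -1.60, -1.34 and -0.60. H2AC15 had log2 signals of 9.14, 9.05, 9.01 and 8.24 in DFO, 9.50, 9.98 and 8.46 in Deferasirox and 10.04 and 10.15 in OICR623, against 11.26, 11.28, 11.38 and 10.71 in DMSO. Treated and DMSO arrays did not overlap. H2AC15 changed by -2.29 ± 0.12 under DFO, by -1.77 ± 0.14 under Deferasirox and by -1.29 ± 0.16 under OICR623 (limma adjusted p 1.4e-06, 3e-05 and 0.0038).

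H2AC20, a HIST2 gene whose promoter is printed above, had signals of 9.89, 8.49, 8.52 and 8.47 in DFO, 8.94, 9.15 and 8.75 in Deferasirox and 9.83 and 10.02 in OICR623, against 11.91, 10.78, 10.86 and 10.75 in DMSO. The high-level arrays DFO 1 and DMSO 1 stood above the rest of their groups, and no treated array reached a DMSO array. Its changes were -2.23 ± 0.08, -1.82 ± 0.08 and -0.89 ± 0.10 under DFO, Deferasirox and OICR623. H2AC21, its HIST2 neighbour and the H2A gene with the highest mean signal, had 9.94, 9.25, 9.42 and 9.28 in DFO, 9.67, 10.05 and 9.43 in Deferasirox and 10.68 and 10.84 in OICR623, against 11.79, 11.21, 11.33 and 11.19 in DMSO. It fell by 1.91 under DFO and by 1.52 under Deferasirox, and its change of -0.54 under OICR623 had an adjusted p of 0.093.

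The H2A genes without a call were H2AC13 and H2AC1. H2AC13 had the smallest change under DFO, with signals of 3.22, 2.64, 2.59 and 2.16 in DFO, 3.12, 2.88 and 2.16 in Deferasirox and 2.93 and 2.13 in OICR623, against 3.52, 2.75, 2.87 and 1.92 in DMSO. The groups overlapped throughout, and the row was the dimmest of all members (mean 2.68, against a 25th percentile of 5.85 over all genes). H2AC1, a testis histone gene, changed by -0.22 ± 0.07 under DFO, -0.18 ± 0.08 under Deferasirox and 0.01 ± 0.10 under OICR623 (limma adjusted p 0.14, 0.29 and 0.99), from a mean signal of 4.99.

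Among H2B genes, 14 of 16 fell under DFO, 14 under Deferasirox and 4 under OICR623 (H2BC3, H2BC6, H2BC9 and H2BC10), with medians of -1.42, -1.13 and -0.56. H2BC14 had the highest mean signal and, under DFO and Deferasirox, the largest fall, whereas under OICR623 the largest was that of H2BC3 (-1.12). It had 11.79, 10.999, 11.18 and 10.64 in DFO, 11.61, 11.92 and 10.64 in Deferasirox and 12.47 and 12.74 in OICR623, against 13.74, 13.40, 13.32 and 13.13 in DMSO. Every treated array lay below every DMSO array. The changes were -2.25 ± 0.15 under DFO, -1.85 ± 0.17 under Deferasirox and -0.83 ± 0.19 under OICR623, the last with an adjusted p of 0.10 by limma.

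H2BC7 had 9.82, 9.42, 9.11 and 8.62 in DFO, 9.74, 10.03 and 8.84 in Deferasirox and 10.58 and 10.80 in OICR623, against 11.59, 11.39, 11.42 and 10.78 in DMSO. The array OICR623 2 lay within the DMSO range, above the low-level array DMSO 4, whereas the other treated arrays lay below it. H2BC7 changed by -2.05 ± 0.11, -1.61 ± 0.12 and -0.72 ± 0.14 under DFO, Deferasirox and OICR623 (limma adjusted p 1.4e-06, 2.8e-05 and 0.056).

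H2BC12 and H2BC1 were not called under any compound on the rows that name them alone. A row shared by H2BC12, H2BC12L, H2BC17 and H2BC5 had untested estimates of -1.01, -0.91 and -0.50 under DFO, Deferasirox and OICR623. H2BC12 averaged 11.21 ± 0.74 log2 in DFO (SD, n = 4), 10.93 ± 0.24 in Deferasirox (n = 3) and 11.01 ± 0.01 in OICR623 (n = 2), against 11.41 ± 0.64 in DMSO (n = 4). Its changes were -0.20 ± 0.08, -0.14 ± 0.08 and -0.14 ± 0.10, with adjusted p by limma of 0.21, 0.47 and 0.69. Read on both strands, its promoter window holds the same 3 motifs as that of H2BC14, though TATAAA is placed differently. H2BC1, the testis H2B gene, had 4.95, 5.16, 4.84 and 4.51 in DFO, 5.20, 5.06 and 4.56 in Deferasirox and 5.17 and 4.97 in OICR623, against 5.09, 4.96, 5.36 and 4.80 in DMSO. Its groups overlapped, and its changes were -0.19, -0.10 and -0.12. Among the genes known to give polyadenylated transcripts as well in some cells are H2BC5, H2BC12 and H2BC21, which were picked after their values were seen. Under DFO they changed by -0.63, -0.20 and -0.83. This list is partial. The other members, whose changes reached -2.90 (H3C12), were not sorted by this trait, and some that fell far may have it. Its relation to the size of the fall was not tested.

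H4 genes fell less than H3 genes. Under DFO 11 of 12 fell, under Deferasirox 10 and under OICR623 6, with medians of -1.10, -1.001 and -0.58. The difference between the families was not tested. H4C2 had 7.83, 7.24, 7.14 and 7.19 in DFO, 7.23, 7.32 and 7.004 in Deferasirox and 7.84 and 7.94 in OICR623, against 9.98, 8.87, 8.75 and 8.67 in DMSO. Treated and DMSO arrays did not overlap, and DFO 1 and DMSO 1 stood above the others of their groups. H4C2 changed by -1.72 ± 0.09, -1.65 ± 0.10 and -0.99 ± 0.12 under DFO, Deferasirox and OICR623 (limma adjusted p 1.6e-06, 7.3e-06 and 0.0038). H4C4 had 8.60, 7.88, 7.76 and 7.84 in DFO, 8.01, 8.32 and 7.79 in Deferasirox and 8.74 and 8.77 in OICR623, against 9.84, 9.34, 9.32 and 9.31 in DMSO. It fell by 1.43 under DFO and by 1.25 under Deferasirox, and its change of -0.58 under OICR623 had an adjusted p of 0.052, again with no overlap with DMSO.

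H4C14, a HIST2 gene, had the highest mean signal of the H4 genes. Its signals were 11.54, 11.18, 11.29 and 10.46 in DFO, 11.43, 11.57 and 10.60 in Deferasirox and 11.71 and 12.16 in OICR623, against 12.99, 12.49, 12.54 and 12.03 in DMSO. DFO and Deferasirox arrays lay below all DMSO arrays, and OICR623 2 lay above DMSO 4. H4C14 changed by -1.39 ± 0.10, -1.16 ± 0.11 and -0.67 ± 0.12 (limma adjusted p 9.3e-06, 0.00011 and 0.043), and the OICR623 call was lost in 21 of 27 alternatives. H4C7, which encodes a divergent H4 protein, was the one member with estimates above 0 under all 3 compounds, though that under OICR623 turned below 0 with other scalings. It had 5.86, 5.15, 5.25 and 5.47 in DFO, 5.46, 5.32 and 5.54 in Deferasirox and 5.12 and 5.30 in OICR623, against 5.86, 5.06, 5.18 and 5.36 in DMSO. The groups overlapped, with estimates of 0.07 ± 0.06, 0.23 ± 0.06 and 0.07 ± 0.07 and adjusted p of 0.64, 0.058 and 0.81 by limma. H4C6 stood near the threshold, with -0.31 (adjusted p 0.018) under DFO and -0.26 (0.057) under Deferasirox.

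**Figure D3:**
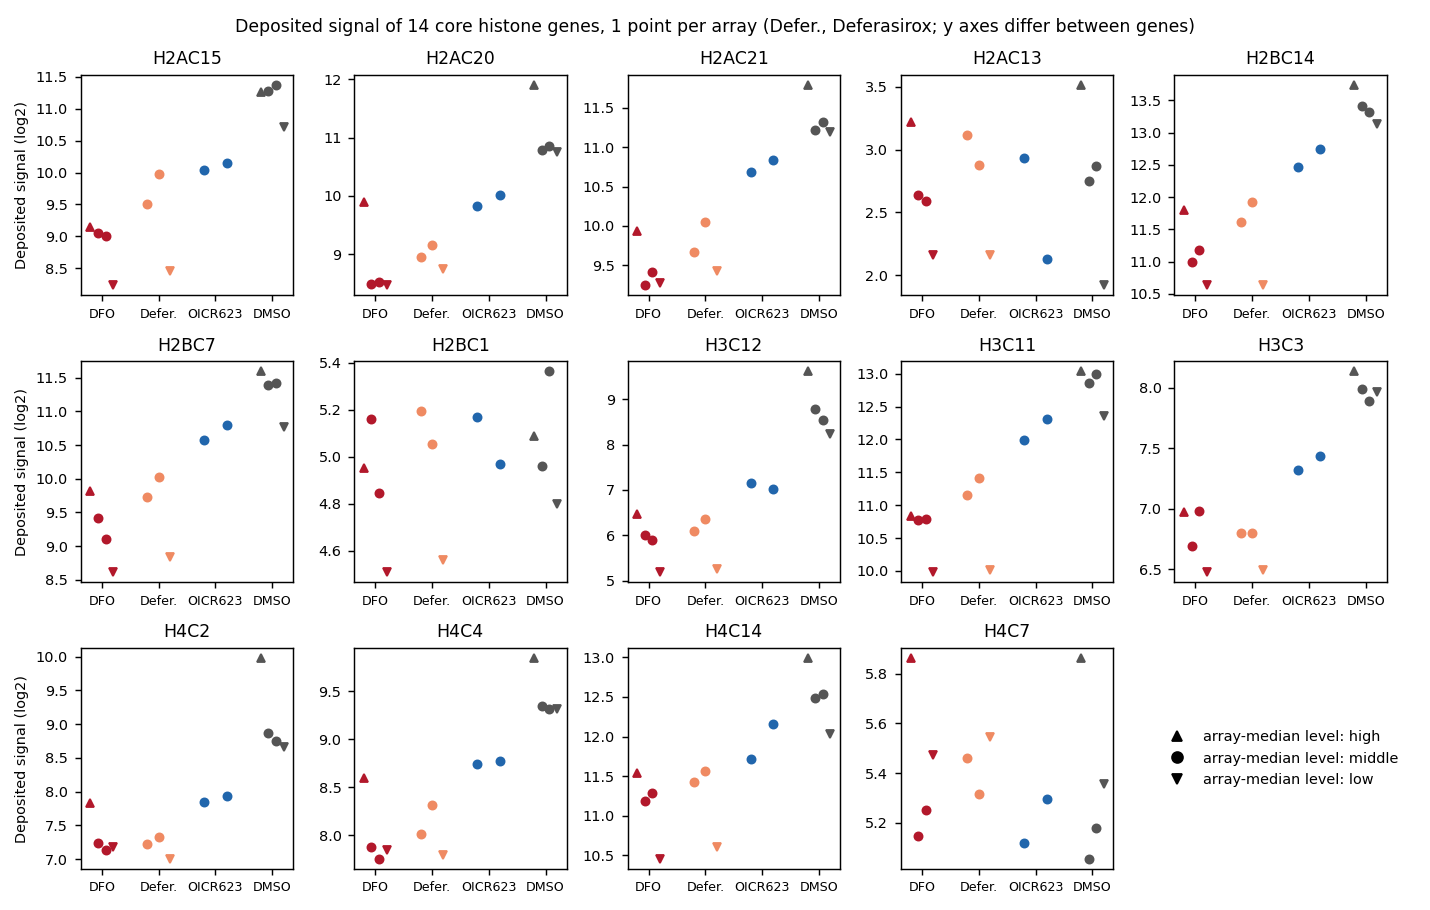
Deposited log2 signal (y axis) of the 14 genes described array by array, with 1 point per array, groups on the x axis and the marker shape giving the array-median level. For H3C12 the treated arrays lie between 5.20 and 7.15 and the DMSO arrays between 8.24 and 9.61, whereas for H2AC13, H2BC1 and H4C7 all groups overlap.

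Of the 50 members, 7 had a mean signal below the 25th percentile of all genes. They were H2AC1, H2AC13, H2AC14, H2BC1, H2BC6, H2BC10 and H4C7. Of these, H2AC14, H2BC6 and H2BC10 fell under DFO, by 1.82, 1.57 and 1.47, and the other 4 were not called under any compound. Across the 50 genes, brighter rows tended to larger falls. Pearson's r between change and mean signal was -0.44 under DFO, -0.41 under Deferasirox and -0.25 under OICR623, as a description over genes that share their arrays and that are not independent. The part of signal strength in the differences between members was not tested.

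By position, the members form 7 runs of neighbouring genes. On chromosome 6 the run from H3C1 to H4C8 holds 24 members, of which 23 fell under DFO with a median of -1.61. The run from H2BC13 to H2BC17 holds 12, of which 11 fell with a median of -1.69. The short run between them, from H2BC11 to H2AC12, holds 5 members, of which 4 fell with a median of -0.84, and it includes H2BC12. The testis genes H2AC1 and H2BC1 form a run of their own, in which 0 of 2 were called. The 4 HIST2 genes had a median of -1.65, the HIST3 genes H2AC25 and H2BC26 changed by -0.87 and -0.64, and the HIST4 gene H4C16 by -0.73, each called lower. Under OICR623 the calls were 14 of 24, 6 of 12 and 3 of 5 in the 3 larger runs, 2 of 4 in HIST2 and 0 of 3 in HIST3 and HIST4 together.

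H2A and H2B genes often lie head to head, with 1 region between both starts. In all, 9 such pairs had windows for both genes, with 212 to 245 bases between the starts. The gap between the changes of the 2 genes of a pair under DFO had a median of 0.40 log2. It was smallest (0.04) for the testis genes H2AC1 and H2BC1, neither of which was called. Gaps between genes that are not paired were not computed. The changes were -1.67 and -1.37 in H2AC6 and H2BC4 and -0.73 and -0.84 in H2AC11 and H2BC11. In H2AC20 and H2BC21 they were -2.23 and -0.83 although both genes share the region printed above, and in H2AC13 and H2BC13 they were -0.11 and -1.56. The first of these gaps was 1.18 under Deferasirox and 0.47 under OICR623, and the second was 1.54 and 0.27. These gaps set the changes of different probes side by side and were not tested. The row of H2AC13 was the dimmest of all members (mean 2.68 log2), and the row that H2AC13 shares with H3C10 changed by -2.44 under DFO.

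**Figure D4:**
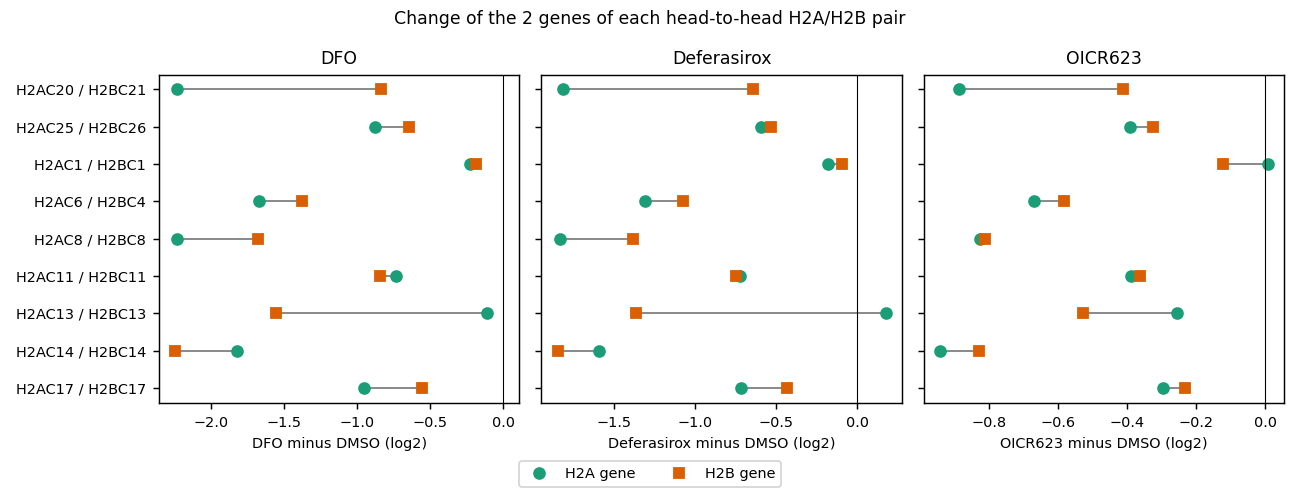
Change in log2 (compound minus DMSO, x axis) of the H2A gene (circle) and the H2B gene (square) of each head-to-head pair (rows), with 1 panel per compound and its own x range. The gap is widest for H2AC13 with H2BC13 and H2AC20 with H2BC21 under DFO (1.44 and 1.40), and both testis genes lie near 0. The H2AC13 row is the dimmest of all members.

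Between compounds, core histone RNA was higher under OICR623 than under DFO at the doses used. In OICR623 against DFO, 21 of 50 genes were called higher, where 0.158% of all genes were. The median difference was 0.72 log2, and 49 of 50 estimates lay above 0, H2AC13 being the exception. The largest were H2BC14 (1.42 ± 0.19, limma adjusted p 0.016), H2AC8 (1.41 ± 0.18, 0.011), H2AC21 (1.37 ± 0.12, 0.0013) and H2AC20 (1.35 ± 0.10, 0.00076). Of the H3 genes, 7 of 8 were called, and H3C3 was not (0.58, adjusted p 0.079). Without the level as a block the count was 0, and it was 7 without OICR623 replicate 2, 11 without OICR623 replicate 1 and 13 without DFO replicate 2 or DFO replicate 3.

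In OICR623 against Deferasirox, 7 genes were called higher, where 0.0598% of all genes were. These were H2AC20, H2AC21, H3C7, H3C8, H3C10, H3C12 and H4C13, from 0.67 ± 0.08 (H4C13) to 1.05 ± 0.11 (H3C10), and the median over the 50 genes was 0.52. This count was 0 without the block, without either OICR623 array or without Deferasirox replicate 1, 13 without DMSO replicate 4 and 14 without Deferasirox replicate 2. In Deferasirox against DFO, limma called 0 of 50 genes, where 0.0435% of all genes were called in either direction, 17 members had an unadjusted p under 0.05, and limma with a trended, robust prior called 2. The median difference was 0.18 log2, and 48 of 50 estimates lay above 0. For H2AC15 the difference was 0.52 with a 95% interval from 0.22 to 0.82, and for H3C12 it was 0.25 with an interval from -0.02 to 0.51. The doses of all 3 compounds differ, so these values do not rank the compounds at a matched dose.

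Of the linker histones, which bind the DNA between nucleosomes, 4 of 7 measured genes fell under DFO, 4 under Deferasirox and 2 under OICR623. H1-5, a replication-dependent linker histone, changed by -3.21 ± 0.20, -3.05 ± 0.22 and -1.35 ± 0.26 under DFO, Deferasirox and OICR623 (limma adjusted p 3.5e-06, 1.8e-05 and 0.045). The OICR623 count of this list was 0 or 1 under 21 of the other settings tried. The median of the list was -0.37 under DFO. Of 8 variants listed as replication-independent, whose genes are used outside S phase too, H2AX was the one called, with -0.23 under DFO and -0.24 under Deferasirox. Under OICR623 0 were called, with 1 at an unadjusted limma p under 0.05. These genes, H2AX among them, were not sorted by the 3′ end of their RNA. The medians of this list were -0.01, 0.02 and -0.04.

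Among 18 genes of histone mRNA transcription and processing, 5 rose and 1 fell under DFO, 4 rose under Deferasirox and 1 rose under OICR623. Of all genes, 1.89%, 2.83% and 0.337% were called higher, and 2.72% lower under DFO. The 5 were the cyclin E genes CCNE1 and CCNE2, the cell cycle genes CDK2 and CDC25A, and SLBP. Under Deferasirox they were the same without CDK2. SLBP rose by 0.22 and 0.17 under DFO and Deferasirox (limma adjusted p 0.0086 and 0.041). The largest rise was that of CCNE2, a cyclin E gene that acts at the entry to S phase, with 0.98 ± 0.05, 1.00 ± 0.05 and 0.63 ± 0.06 (limma adjusted p 8.7e-07, 2.4e-06 and 0.0012). ZNF473, a component of histone mRNA 3′ end processing, fell by 0.22 under DFO. Of 12 genes of histone mRNA decay, 0 were called under any compound by limma, with 0, 1 and 1 at an unadjusted p under 0.05. Of 13 histone chaperones, CHAF1A rose by 0.22 under DFO, and ASF1A fell by 0.19 under DFO and by 0.23 under Deferasirox. Of 31 DNA replication genes, 4 rose and 0 fell under DFO and under Deferasirox, where 1.89% and 2.83% of all genes were called higher. They were led by CDC6, a loading factor of the replicative helicase, with 0.28 and 0.27. Under OICR623 0 were called. The medians of this list were 0.11, 0.08 and 0.04, and 2, 3 and 6 of its 31 estimates lay below 0. An unadjusted limma p under 0.05 was reached by 17, 12 and 2 of these genes, against 2891, 3304 and 1963 of all 18404 genes. The lists of regulators, decay factors, chaperones and the replication machinery had medians within 0.11 of 0 under each compound. The counts of these lists depended on the settings. Over the alternatives tried, those of transcription and processing ran from 0 to 6 under DFO, from 0 to 5 under Deferasirox and from 0 to 2 under OICR623. For OICR623, and so for CCNE2, the count was 0 without the level as a block, with a replicate block alone or beside the level, and with the arrays of OICR623 and DMSO alone. A replicate block joins arrays of different levels, such as OICR623 1 and DMSO 1. Those of the chaperones ran from 0 to 4 under DFO and from 0 to 3 under Deferasirox, and those of DNA replication from 0 to 11 and from 0 to 8. With a replicate block together with the level, limma called 0 chaperones and 2 DNA replication genes under DFO, and 0 chaperones under Deferasirox. The H2AX calls under DFO and Deferasirox ended without a block and in the middle level alone.

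**Figure D5:**
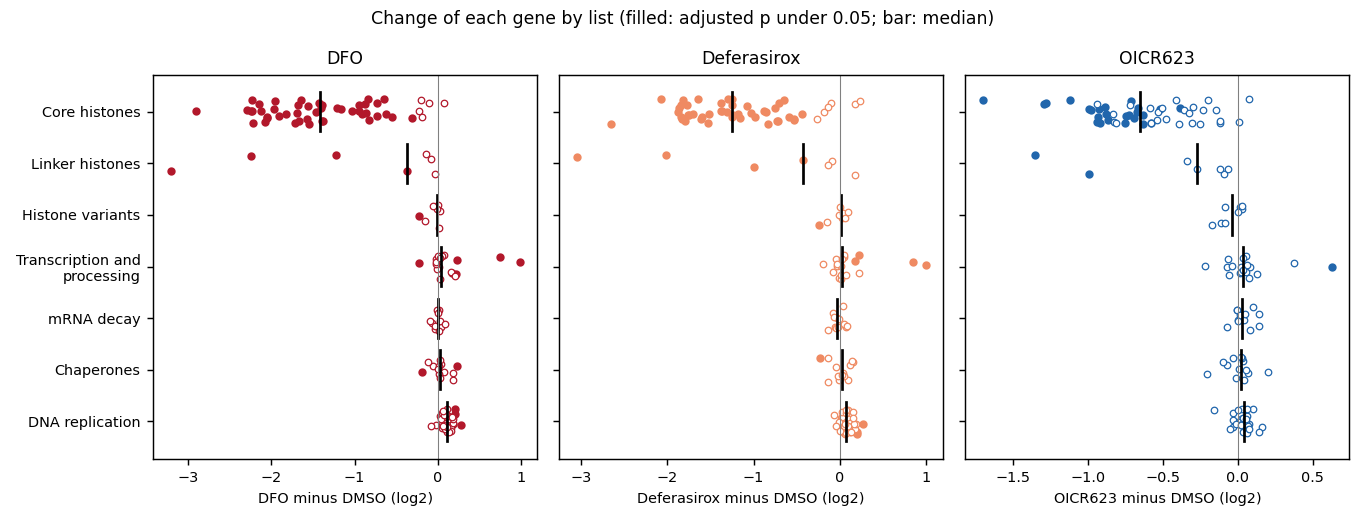
Change in log2 (compound minus DMSO, x axis) of each gene (points) of the core histones and of 6 related lists (rows), with the list median as a bar and filled points for an adjusted p under 0.05. Core histones have medians of -1.42, -1.25 and -0.65 under DFO, Deferasirox and OICR623, and linker histones reach -3.21 under DFO. The other lists centre near 0, with the CCNE2 rise of 0.98 at their right, and most DNA replication genes lie above 0.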

How the data were processed

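Human Gene 1.0 ST arrays (Affymetrix) were used for the RNA of 13 SW480 cultures. The authors deposited log2 signals for each transcript cluster and array. The submitters' processing notes name GCRMA and limma, with neither version nor step, and the genome build is not given in the sources used here. Of 32321 rows, 19158 carried 1 symbol in the platform annotation, 1388 several and 11775 none, and 19128 were matched to RefSeq (GRCh38.p14) by Entrez identifier with 0 symbols updated. The highest-mean row per gene left 18404 genes.

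All genes were fitted with limma 3.58.1 (R 4.3.3): 1 mean per group, the 3 array-median levels (cut at gaps over 0.05) as a block, 7 residual degrees of freedom, and calls at p under 0.05 after Benjamini-Hochberg adjustment. The levels were first seen in the data, and their origin is not stated. Without detection calls, the number of arrays limits the precision. The members, lists and tests were chosen with earlier results of these data known. Array-by-array values were given per family for the 2 largest falls under DFO, the highest mean, the smallest change under DFO and any member called higher (0 were), the testis genes were named, and from the lists the called gene of largest change in each direction. The called genes of histone mRNA transcription and processing were all named, which was decided after their values were seen. Same-numbered DFO and DMSO arrays deviated together (r over genes 0.945, 0.662, 0.738 and 0.789), which cannot be told from their shared levels; for the other pairs of groups r was -0.32 to 0.33. Scripts were tested on simulated data. Alternatives changed the block, scaling, row choice, filter on dim genes, prior and arrays used.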

Additional observations from a re-analysis of the deposited data

Results flagged for a closer look

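Deposited signals of the 14 genes described array by array were checked in the groups of 4 arrays, DFO and DMSO, for an array far from the other 3. In 8 of 28 groups the gap to the nearest array exceeded the 95% critical value of Dixon's test, where chance gives about 1 in 20. In 6 of these the array was replicate 1, from the high level. H2AC20 stood at 9.89 in DFO 1 (others 8.47 to 8.52) and at 11.91 in DMSO 1 (10.75 to 10.86). H4C2 stood at 7.83 in DFO 1 (7.14 to 7.24) and at 9.98 in DMSO 1 (8.67 to 8.87). H4C4 stood at 8.60 in DFO 1 (7.76 to 7.88) and at 9.84 in DMSO 1 (9.31 to 9.34). In the low level, H2AC15 stood at 8.24 in DFO 4 (9.01 to 9.14) and H3C11 at 9.99 in DFO 4 (10.77 to 10.84). After the array median was subtracted from each array, 4 of 28 groups had such an array. The part of the level in these values was not tested.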

How the results depend on the processing

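Counts of core histone genes called and their medians were recomputed under each alternative; the spread used for a median was 0.08, the residual SD of the members' mean. Leaving out 1 array at a time gave 44 to 45 calls under DFO, 42 to 45 under Deferasirox and 7 to 27 under OICR623, with medians of -1.46 to -1.37, -1.30 to -1.17 and -0.69 to -0.60. It gave 7 to 22 calls in OICR623 against DFO, 0 to 14 in OICR623 against Deferasirox and 0 in Deferasirox against DFO. Without the level as a block, 22, 22 and 0 genes were called under DFO, Deferasirox and OICR623, the Deferasirox median was -1.43, and 0 were called in OICR623 against either compound. With a replicate block in place of the level, 3 were called under OICR623 (median -0.97, Deferasirox median -1.53) and 0 against either compound. Such a block joins arrays of different levels. It sets OICR623 1 and Deferasirox 1 (middle) with DMSO 1 and DFO 1 (high), and Deferasirox 3 (low) with DMSO 3 (middle). With the replicate block together with the level, 11 were called under OICR623 (median -0.52; Deferasirox median -1.08). The middle level alone gave a DFO median of -1.52 and 4 calls in OICR623 against Deferasirox, and the arrays of OICR623 and DMSO alone gave 9 calls. With array medians subtracted and no block, 4 were called under OICR623, 7 in OICR623 against DFO and 0 against Deferasirox; with quantile normalization these were 6, 11 and 0, with an OICR623 median of -0.57. Leaving out dim genes gave 18 calls of 43 in OICR623 against Deferasirox, and the trended, robust prior gave 16, with 2 in Deferasirox against DFO. Without the low level, an alternative chosen after the data had been seen like that without the high level and quantile normalization with the block, the Deferasirox median was -1.16. The cause of these shifts was not tested. Genes with no call changed sign under some settings. Under Deferasirox, H2AC13 was at -0.046 without a block, -0.27 with a replicate block in place of the level and -0.015 with both blocks, and H2BC1 at 0.044 with medians subtracted and 0.025 with quantile normalization. Under OICR623, H2BC1 was at 0.016, 0.12 and 0.093 and H4C7 at -0.16, -0.057 and -0.093 without a block, with medians subtracted and with quantile normalization, and H4C7 was at -0.19 with a replicate block in place of the level. Leaving out 1 array moved H4C7 between -0.016 and 0.16 and H2AC13 between -0.66 and 0.15 under OICR623. Of the 1125 values of the 14 genes under the alternatives, 1035 kept their direction and their side of the threshold, 58 lost a call, 18 gained one and 14 changed sign. The lost calls were under OICR623, apart from H4C14 under DFO and Deferasirox without a block: 21 of H4C14, 10 each of H3C3 and H3C11, 5 of H2AC15, 4 each of H2AC20 and H4C2 and 2 of H3C12. H3C3 had an adjusted p of 0.19 with the replicate block together with the level, 0.09 in the middle level alone and 0.13 with OICR623 and DMSO alone; H3C11 had 0.056 in the middle level alone and 0.16 with OICR623 and DMSO alone. H4C7 was called higher under Deferasirox (0.23) without OICR623 replicate 1 or 2 and with quantile normalization and the block.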

Other observations

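In all, 17 rows named by several symbols hold at least 1 core histone gene, and among them are all rows of the 13 genes without a row of their own. Some of the others are named by genes that also have a row of their own. The same model gave estimates for these rows without a test. Of these 17 rows, 15 had estimates below 0 under DFO, 15 under Deferasirox and 15 under OICR623, with medians of -0.995, -0.81 and -0.48. The lowest estimate was that of the row shared by H3C10 and H2AC13, with -2.44 under DFO, -1.94 under Deferasirox and -1.002 under OICR623, whereas the row named by H2AC13 alone had -0.11, 0.17 and -0.26. The row shared by H3C4 and H2AC7 had -2.18, -1.79 and -0.89. Other shared rows fell less under DFO than the row of a single gene. That of H3C11 and H3C6 had -0.36, against -2.22 for H3C11 alone. That of H2BC15 and H2AC15 had -1.06, against -2.29 for H2AC15 alone. That of H4C15 and H4C14 had -0.65, against -1.39 for H4C14 alone. The rows that H2BC21 shares had -0.96 and -0.995, against -0.83 for H2BC21 alone. Of the 3 rows shared by H3C13, H3C14 and H3C15, 2 had -1.63 and -1.18 under DFO and the third had 0.24. The 2 rows shared by H4C11 and H4C12 had -1.66 and -0.14. The 2 rows shared by H2BC18 and H2BP1 had -0.61 and -0.54.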
